A study of Mus musculus with 2 samples.

Results

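The collagen genes outside type IV are those whose symbol is Col, a type number, the letter a and a chain number, other than the chains of basement membrane type IV collagen. Of 38 such genes in the files, 37 had at least 20 unique molecular identifiers (UMIs, the count of captured mRNA molecules) over both libraries and are the genes described here, out of 32285 genes in the files and 18882 with at least 20 UMIs. The gene left out was Col10a1, the growth-plate cartilage chain, with 5 UMIs in KO barcodes and 5 in WT barcodes; the described gene with the fewest was Col22a1, with 3 and 52. The series holds 1 KO library, from C57BL/6 mice with a Gpm6a deletion, and 1 WT library, each a 10x Genomics 3′ library of viable (DAPI-negative) cells sorted from collagenase-digested 4th mammary glands. Both groups were virgin females of 6 to 8 weeks, with 3 littermates described for each genotype. The protocol does not say how those animals were combined, and neither the deleted segment of Gpm6a, which encodes a neuronal membrane glycoprotein, nor any promoter that limits the deletion to a cell type is given in the sources used here. Gpm6a itself had 29 UMIs in KO cells and 284 in WT cells, or 0.226 UMIs in KO and 1.91 in WT per 1000000 UMIs (CPM, the unit of all levels here), and 3′ tags outside a deleted segment would not check it.

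Collagens are made of chains with repeated glycine triplets that wind around each other in the endoplasmic reticulum, after prolyl and lysyl hydroxylation and with the chaperone Serpinh1 (HSP47). Types I, III and V are fibril-forming and give the stroma of the mammary gland its tensile fibrils, fibril-associated (FACIT) collagens coat such fibrils, type VI forms beaded filaments, and type VII anchors epithelial basement membranes to the stroma. Types XIII, XVII, XXIII and XXV span the plasma membrane, and types XV and XVIII carry heparan or chondroitin sulfate chains and lie at basement membranes.

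Cells were classed by marker genes, so each class name means cells like that type. The analysed cells numbered 10422 KO and 10523 WT, with a median of 9500 and 11086 UMIs, 33 barcode sequences occurred in both libraries, and 8.34% of KO and 19.0% of WT cells stayed unnamed. The libraries differed in cell makeup, and the compared classes held 4491 KO and 3777 WT fibroblasts, 945 and 1415 basal cells, 200 and 516 mural cells, and 262 and 279 vascular endothelial cells. Clusters were built without any collagen gene. With 1 library per genotype nothing could be tested between genotypes: intervals in brackets are exact 95% Poisson intervals (Clopper-Pearson for shares of cells and for ratios of UMIs of a pair of genes), they cover counting error only, and differences between animals and between libraries cannot be told apart. Levels are compared within a gene across cells, since 3′ capture differs between genes.

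**Figure D1:**
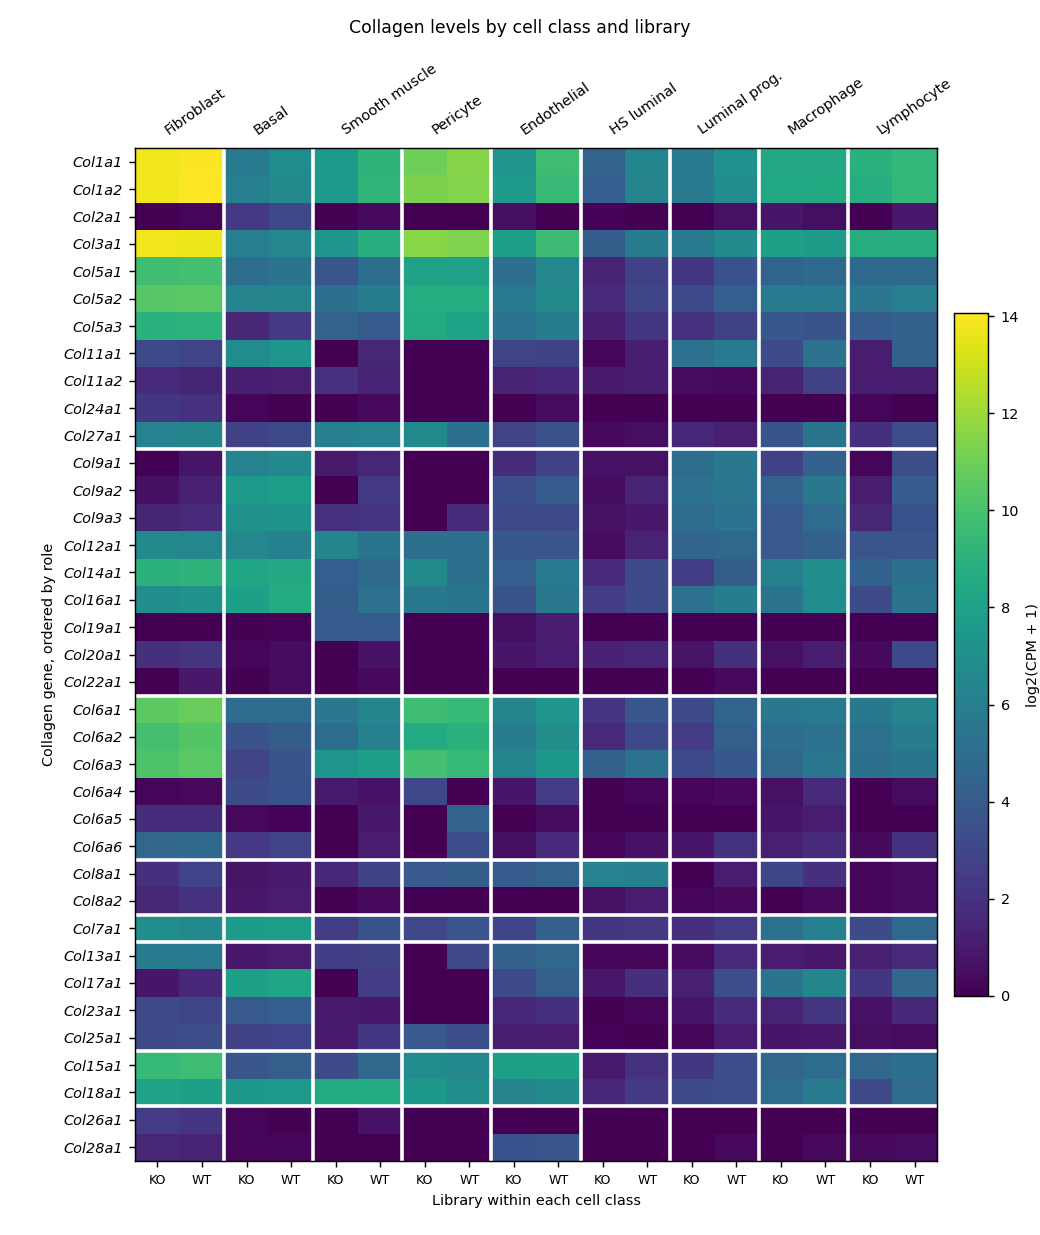
Level of the 37 collagen genes, as log2(CPM + 1), in 9 groups of cells, with the KO library left and the WT library right in each pair; genes run down the page by role, with white lines between roles. Col1a1, Col1a2 and Col3a1 are brightest in fibroblasts, the Col9a1, Col9a2, Col9a3, Col11a1 and Col17a1 rows in basal cells, and Col8a1 in hormone-sensing (HS) luminal cells.

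The chains divided among stroma, basal epithelium, vessels and luminal epithelium in the same way in both libraries for most genes. Over 11 classes with at least 50 cells in each library, 32 of 37 genes had their highest level in the same class in both. For 27 of these the intervals of the first and second class were apart in both libraries. The same counts over all genes are not given, so these are not read as particular to collagens. Fibroblasts were highest for 18 genes, basal cells for 10 (Col2a1, Col11a1, Col9a1, Col9a2, Col9a3, Col16a1, Col6a4, Col7a1, Col17a1 and Col23a1), mural cells for Col18a1 and Col19a1, hormone-sensing luminal cells for Col8a1, and endothelial cells for Col28a1. The 5 genes without a shared highest class were Col11a2, Col20a1, Col22a1, Col6a5 and Col8a2, all at 26.1 CPM or less in every class. Summed over all 37 genes, fibroblasts held 49644 CPM in KO and 56086 CPM in WT, against 2225 and 2788 CPM in basal cells.

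Promoters are shown for chains of 3 of these patterns: Col1a2 and Col3a1, highest in fibroblasts, Col17a1, highest in basal cells, and Col8a1, highest in hormone-sensing luminal cells. RefSeq promoters on GRCm38.p6, from 250 bases before to 50 bases after the gene start, were found for 29 of the 37 genes (32 promoters). Capitals mark TATAAA or its reverse complement TTTATA, and CCAAT or its reverse complement ATTGG, searched on both strands; no matches overlap in the 4 promoters printed.
Col1a2: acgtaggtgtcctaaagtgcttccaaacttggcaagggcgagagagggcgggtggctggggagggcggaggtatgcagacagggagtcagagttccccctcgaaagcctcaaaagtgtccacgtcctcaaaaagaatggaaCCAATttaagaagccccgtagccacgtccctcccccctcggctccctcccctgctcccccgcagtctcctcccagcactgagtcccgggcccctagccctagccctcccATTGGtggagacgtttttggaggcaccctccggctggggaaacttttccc
Col3a1: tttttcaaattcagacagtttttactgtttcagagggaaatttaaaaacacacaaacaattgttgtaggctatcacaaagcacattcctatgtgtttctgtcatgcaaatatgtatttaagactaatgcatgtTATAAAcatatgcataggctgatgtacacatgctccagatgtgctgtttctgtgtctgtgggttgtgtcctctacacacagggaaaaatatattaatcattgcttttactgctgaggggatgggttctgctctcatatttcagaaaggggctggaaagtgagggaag
Col17a1: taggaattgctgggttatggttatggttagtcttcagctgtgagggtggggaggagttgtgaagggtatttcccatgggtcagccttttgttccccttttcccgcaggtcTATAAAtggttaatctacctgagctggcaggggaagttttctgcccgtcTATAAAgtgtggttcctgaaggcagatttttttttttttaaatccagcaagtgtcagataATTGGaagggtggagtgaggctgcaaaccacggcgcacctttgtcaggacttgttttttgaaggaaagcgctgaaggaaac
Col8a1: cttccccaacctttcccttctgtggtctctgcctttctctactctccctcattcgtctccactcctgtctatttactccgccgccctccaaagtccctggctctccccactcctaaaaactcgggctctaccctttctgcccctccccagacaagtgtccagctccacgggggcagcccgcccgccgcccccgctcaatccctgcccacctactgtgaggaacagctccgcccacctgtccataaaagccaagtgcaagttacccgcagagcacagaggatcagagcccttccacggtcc
They lie at chr6:4505368-4505667 on the plus strand (Col1a2), chr1:45311288-45311587 on the plus strand (Col3a1), chr19:47691993-47692292 on the minus strand (Col17a1) and chr16:57754688-57754987 on the minus strand (Col8a1), and each is printed 5′ to 3′ along its gene. TATAAA was found in 4 of the 32 collagen promoters (12.5%) and in 4473 of all 32851 promoters (13.6%). CCAAT was found in 10 of 32 (31.3%) and in 12289 of 32851 (37.4%), so neither share stood above that of all promoters. A match is a run of letters and not a binding site, and the absence of a match in Col8a1 says only that those letters are not in this window.

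Among fibril-forming chains, the type I chains Col1a1 and Col1a2 and the type III chain Col3a1 were fibroblast messages. Col1a1 reached 13834 CPM in KO fibroblasts and 16139 CPM in WT fibroblasts, and Col1a2 reached 13685 and 17068 CPM. Col3a1 stood at 13852 CPM in KO and 13386 CPM in WT fibroblasts. Fibroblasts held 96.3% of all Col1a1 UMIs of the KO cells and 89.8% of those of the WT cells, where cluster 10, described below, held another 3.80%. A Col1a1 UMI was found in 4490 of 4491 KO fibroblasts and in 3776 of 3777 WT fibroblasts. Col1a1 UMIs were also found in 19.8% of KO and 36.2% of WT lymphocytes, cells that do not make collagen, at median depths of 4341 and 5085 UMIs (10.2% and 16.2% after thinning each cell to 2000 UMIs), so low levels of these chains in other cells are read against free or co-captured fibroblast RNA. The lymphocyte group held 1113 KO and 423 WT cells. It was not the whole of the T cell, B cell and natural killer classes. Those held 743, 386 and 82 KO cells and 327, 136 and 50 WT cells.

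The type V chains, which sit within type I fibrils and limit their width, were highest in fibroblasts, as the type I chains were. Col5a1 had 852 CPM in KO and 912 CPM in WT fibroblasts, and Col5a2 had 1349 and 1402 CPM. Col5a3, the least widespread type V chain, had 507 CPM in KO and 553 CPM in WT fibroblasts and was concentrated in 1 of their 5 clusters, given below. Basal cells held few Col5a3 UMIs beside Col5a2, at 0.0243 Col5a3 UMIs per Col5a2 UMI in KO and 0.0477 in WT, against 0.376 and 0.395 in fibroblasts.

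The minor fibril-forming chains lay elsewhere. Col11a1, which in cartilage forms type XI fibrils with Col2a1, had 109 CPM in KO and 168 CPM in WT basal cells, against 7.86 and 6.36 CPM in fibroblasts. Col2a1, the chief cartilage chain, was counted at 4.13 CPM in KO and 7.59 CPM in WT basal cells. Col27a1, another fibrillar chain of cartilage, was about equal in fibroblasts (75.4 CPM in KO, 84.1 CPM in WT) and in smooth muscle (68.9 CPM in KO, 74.0 CPM in WT), and its intervals in fibroblast and mural cells overlapped in at least 1 library. Col24a1, a fibrillar chain known from bone and cornea, was found mostly in 1 fibroblast cluster.

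Fibril-associated chains were divided between fibroblasts and basal cells. The type IX chains, which decorate cartilage fibrils, were basal messages here: Col9a1 had 73.3 CPM in KO and 96.5 CPM in WT basal cells, Col9a2 194 and 225 CPM, and Col9a3 147 and 154 CPM, while fibroblasts held at most 2.31 CPM of any of these chains. Col16a1, a minor fibril-associated chain, had 248 CPM in KO and 406 CPM in WT basal cells, above the 123 and 144 CPM of fibroblasts. Col14a1, which binds decorin on fibrils, was shared, with 526 CPM in KO and 560 CPM in WT fibroblasts and 323 and 353 CPM in basal cells. Col12a1, a fibril coat of tendon and other stretched tissue, was about as high in fibroblasts (95.9 CPM in KO, 88.6 CPM in WT) as in basal cells (90.3 CPM in KO, 71.3 CPM in WT).

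Relative to Col1a1, Col14a1 and Col12a1 stood higher in basal cells than in fibroblasts. Basal cells held 5.69 Col14a1 UMIs per Col1a1 UMI in KO (5.30 to 6.11) and 3.08 in WT (2.95 to 3.23), against 0.0380 and 0.0347 in fibroblasts. For Col12a1 the ratio was 1.59 in KO basal cells and 0.623 in WT basal cells, against 0.00693 and 0.00549 in fibroblasts.

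Several chain genes are neighbours on GRCm38 (GENCODE M21): Col6a6, Col6a5 and Col6a4 lie in a row on the minus strand at chr9:105687809-106096783, Col6a2 and Col6a1 on the minus strand at chr10:76595762-76726168, and Col3a1 (plus strand) beside Col5a2 (minus strand) at chr1:45311538-45503282. The main type VI chains, which assemble as Col6a1, Col6a2 and a longer chain, were highest in fibroblasts. Col6a1 had 1466 CPM in KO and 1771 CPM in WT fibroblasts, Col6a2 971 and 1262 CPM, and Col6a3 1108 and 1411 CPM. Of the chains that can take the place of Col6a3, Col6a6 had 23.9 CPM in KO and 27.1 CPM in WT fibroblasts, Col6a5 2.64 and 2.53 CPM there, and Col6a4 8.51 and 10.7 CPM in basal cells. Smooth muscle cells were richer than fibroblasts in Col6a3 relative to Col6a1. They held 3.48 UMIs of Col6a3 per UMI of Col6a1 in KO (2.49 to 4.94) and 2.71 in WT (2.36 to 3.12). Fibroblasts held 0.756 and 0.797. Smooth muscle was not the only such class, as hormone-sensing luminal cells also held more Col6a3 than Col6a1 UMIs. Without the fibroblast-marked barcodes described below, these were 466 and 74 in KO and 698 and 104 in WT.

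Col8a1, a short chain that forms hexagonal networks in vessels and cornea, was the only one of the 37 with its highest level in luminal cells in both libraries. It had 74.5 CPM (71.1 to 78.1) in KO and 67.6 CPM (64.3 to 71.1) in WT hormone-sensing cells, and at most 1.08 CPM in luminal progenitors of either library. A Col8a1 UMI was found in 56.5% of KO and 54.2% of WT hormone-sensing cells (median depth 16822 and 19825 UMIs), against 0.0898% and 0.236% of lymphocytes. After thinning each cell to 2000 UMIs the shares were 12.4% in KO (10.6 to 14.3) and 10.9% in WT (9.01 to 13.1), with no thinned lymphocyte holding a UMI (upper limits 0.340% and 0.889%). Its usual partner Col8a2 had 0.537 CPM in KO and 1.07 CPM in WT hormone-sensing cells, or 0.00720 and 0.0158 Col8a2 UMIs per Col8a1 UMI. Endothelial cells also held Col8a1, at 15.8 CPM in KO and 21.1 CPM in WT. Cluster 6 (Aldh1a3, Snorc, Atp6v1b1; 446 KO and 348 WT cells), left unnamed because it carried markers of both luminal classes, had 60.7 CPM of Col8a1 in KO and 55.3 CPM in WT.

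The anchoring and membrane-spanning chains split between epithelium and fibroblasts. Col17a1, the hemidesmosome collagen, had 246 CPM (238 to 253) in KO and 322 CPM (315 to 330) in WT basal cells, with a UMI in 89.9% and 88.3% of them, against 0.719% and 3.07% of lymphocytes. Thinned to 2000 UMIs, these shares were 39.6% and 42.7% of basal cells, against 0.462% and 1.45% of lymphocytes. Col7a1, the anchoring fibril chain that binds the same basement membrane from the stromal side, had 213 CPM in KO and 228 CPM in WT basal cells, and 117 and 101 CPM in fibroblasts. Col23a1 was a low basal message, at 14.4 CPM in KO and 17.7 CPM in WT. Col13a1, found at cell adhesions, had 57.5 CPM in KO and 54.2 CPM in WT fibroblasts and 19.2 and 23.8 CPM in endothelial cells. Col25a1, first known from brain, had 8.56 CPM in KO and 8.89 CPM in WT fibroblasts.

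The basement membrane chains Col18a1, the source of endostatin, and Col15a1 were found in vessels and in fibroblasts, and Col18a1 also in basal cells. Basal cells held 18.8% of Col18a1 UMIs in KO and 22.0% in WT, against 1.22% and 1.39% in endothelial cells, and the basal clusters are given below. Col18a1 had 365 CPM in KO and 361 CPM in WT mural cells, against 277 and 254 CPM in fibroblasts, which held 70.2% of its UMIs in KO and 53.6% in WT. It had 391.6 CPM (353 to 433) in KO and 391 CPM (370 to 413) in WT smooth muscle cells. Col15a1 was highest in fibroblasts, at 673 CPM in KO and 814 CPM in WT, but endothelial cells held 252 CPM (232 to 273) in KO and 249 CPM (230 to 269) in WT. Endothelial cells had 1.51 Col15a1 UMIs per Col1a1 UMI in KO and 0.297 in WT, against 0.0487 and 0.0504 in fibroblasts. Col19a1, a rare fibril-associated chain, was found in smooth muscle at 15.4 CPM (8.63 to 25.4) in KO and 15.8 CPM (11.8 to 20.8) in WT, with no UMI in 24 KO and 63 WT pericytes, which allows up to 21.6 and 7.19 CPM. Col28a1, a chain with von Willebrand factor A domains known from peripheral nerve, was the endothelial one, at 10.8 CPM (7.08 to 15.9) in KO and 12.3 CPM (8.40 to 17.3) in WT. The few Schwann cells (12 KO and 22 WT) had 87.6 CPM (28.5 to 205) and 72.1 CPM (33.0 to 137) of Col28a1, from 5 and 9 UMIs.

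Pericytes stood apart from smooth muscle by their fibrillar chains. Col1a1 had 2002 CPM in KO and 2854 CPM in WT pericytes, against 188 and 557 CPM in smooth muscle cells, and Col5a3 had 389 and 280 CPM, against 21.6 and 16.1 CPM. These values rest on 24 KO and 63 WT pericytes, and barcodes with fibroblast markers were kept in them. Without such barcodes, set apart as described below, the whole mural class kept 127 KO and 645 WT Col1a1 UMIs. These counts are below those of pericytes alone in each library, so part of the pericyte Col1a1 lay in fibroblast-marked barcodes. The part of such barcodes in the difference from smooth muscle was not tested.

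**Figure D2:**
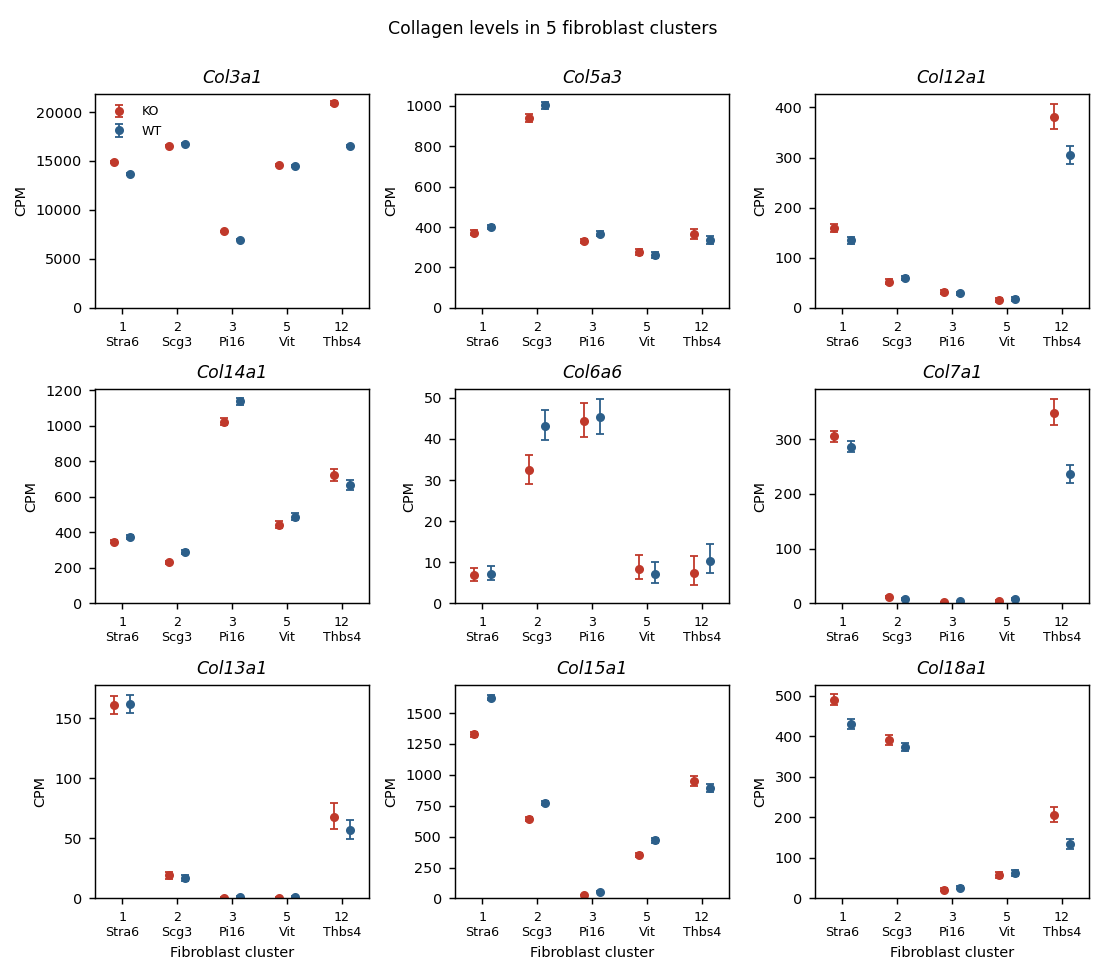
Level (CPM) of 9 chains in the 5 fibroblast clusters, each labelled by 1 of its leading genes, with KO in red on the left and WT in blue on the right; bars are exact 95% Poisson intervals. Col5a3 peaks in cluster 2, Col14a1 in cluster 3, Col12a1 in cluster 12, and Col13a1 and Col15a1 in cluster 1, in both libraries.

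Fibroblasts fell into 5 clusters that differed in their collagen chains, although no collagen gene was used to form them. They were cluster 1 (Stra6, Crabp1, Nos1; 1176 KO and 963 WT cells), cluster 2 (Scg3, Adam12, H19; 1109 and 1002), cluster 3 (Smpd3, Akr1c18, Pi16; 1164 and 794), cluster 5 (Vit, Clec11a, Gdf10; 815 and 742) and cluster 12 (Thbs4, Cilp, C1qtnf3; 227 and 276). Of the 34 chains with at least 20 UMIs in fibroblasts, 24 were highest in the same cluster in both libraries. In 17 of them the intervals were apart from those of the second cluster in both. Here, too, the same counts over all genes are not given. Cluster 5 was the shallowest, with median depths of 4102 UMIs in KO and 5669 in WT, against 8560 to 10414 in the other 4 clusters of the KO library and 11100 to 12220 in those of the WT library.

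Cluster 1, led by the retinol transporter gene Stra6, was the highest of the 5 fibroblast clusters for several membrane-spanning and basement membrane chains. These were Col13a1, Col23a1 and Col25a1, but not Col17a1, and Col15a1 and Col18a1. Col13a1 had 161 CPM (154 to 169) in KO and 162 CPM (155 to 170) in WT there, against 0.398 and 0.93 CPM in cluster 3. Col15a1 had 1327 CPM in KO and 1625 CPM in WT, against 27.5 and 52.7 CPM in cluster 3, and Col18a1 had 490 and 431 CPM, against 21.8 and 26.8 CPM. Col25a1 had 27.2 CPM in KO and 31.2 CPM in WT, Col24a1 12.3 and 8.87 CPM, and Col26a1, a small secreted chain, 13.3 and 9.57 CPM. Each of Col24a1, Col25a1 and Col26a1 was at 7.30 CPM or less in the other 4 clusters of both libraries.

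Cluster 12, led by the tendon glycoprotein gene Thbs4 and the cartilage matrix gene Cilp, was highest for Col1a1 (23976 CPM in KO, 26505 CPM in WT) and Col1a2 (24073 CPM in KO, 27846 CPM in WT). It was also highest for Col12a1, with 382 CPM (358 to 407) in KO and 305 CPM (287 to 324) in WT, against 159 and 135 CPM in cluster 1 and at most 59.7 CPM in clusters 2, 3 and 5. Its Col8a2 level was 14.2 CPM in KO and 18.7 CPM in WT, with at most 2.31 CPM in any other fibroblast cluster. Col7a1 was concentrated in clusters 1 (306 CPM in KO, 287 CPM in WT) and 12 (349 CPM in KO, 236 CPM in WT), with 10.9 CPM or less in clusters 2, 3 and 5 of either library. Of 39 Col22a1 UMIs in WT fibroblasts, 38 lay in 1 cell of cluster 12; Col22a1 marks the muscle-tendon junction.

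Cluster 3, whose leading genes include the peptidase inhibitor gene Pi16, was highest for Col14a1, at 1023 CPM (1003 to 1043) in KO and 1138 CPM (1116 to 1159) in WT, and had the lowest Col3a1, at 7812 and 6940 CPM. Its Col6a6 level, 44.5 CPM in KO and 45.4 CPM in WT, was not apart from the 32.4 and 43.2 CPM of cluster 2 in the WT library. Cluster 2 was highest for Col5a3, at 940 CPM (922 to 959) in KO and 1002 CPM (985 to 1020) in WT, against at most 400 CPM elsewhere among fibroblasts. The other type V chains were not highest there: Col5a1 was highest in cluster 12, at 1261 CPM in KO and 1069 CPM in WT, and Col5a2 in cluster 12 of KO (2097 CPM) and in cluster 1 of WT (1968 CPM). Cluster 2 held 0.706 Col5a3 UMIs per Col5a2 UMI in KO and 0.683 in WT, against 0.191 and 0.203 in cluster 1 and 0.174 and 0.189 in cluster 12. Col6a3 per Col6a1 differed in a like way, at 1.14 in KO and 1.19 in WT cluster 2 and 1.20 and 1.29 in cluster 3, against 0.446 and 0.461 in cluster 1. Cluster 5 had no chain that was highest in both libraries with intervals apart.

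A further cluster of fibroblast-like cells, cluster 10 (Rxfp2, Rspo3, Unc13c), was set apart because it held 1 KO cell and 609 WT cells. Its WT cells had 4143 CPM of Col1a1 and 2376 CPM of Col3a1, below each of the 5 fibroblast clusters of the WT library, but 25.4 CPM (21.8 to 29.5) of Col23a1, against at most 14.6 CPM there. Genotype and the presence of this cluster cannot be told apart with 1 library each.

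**Figure D3:**
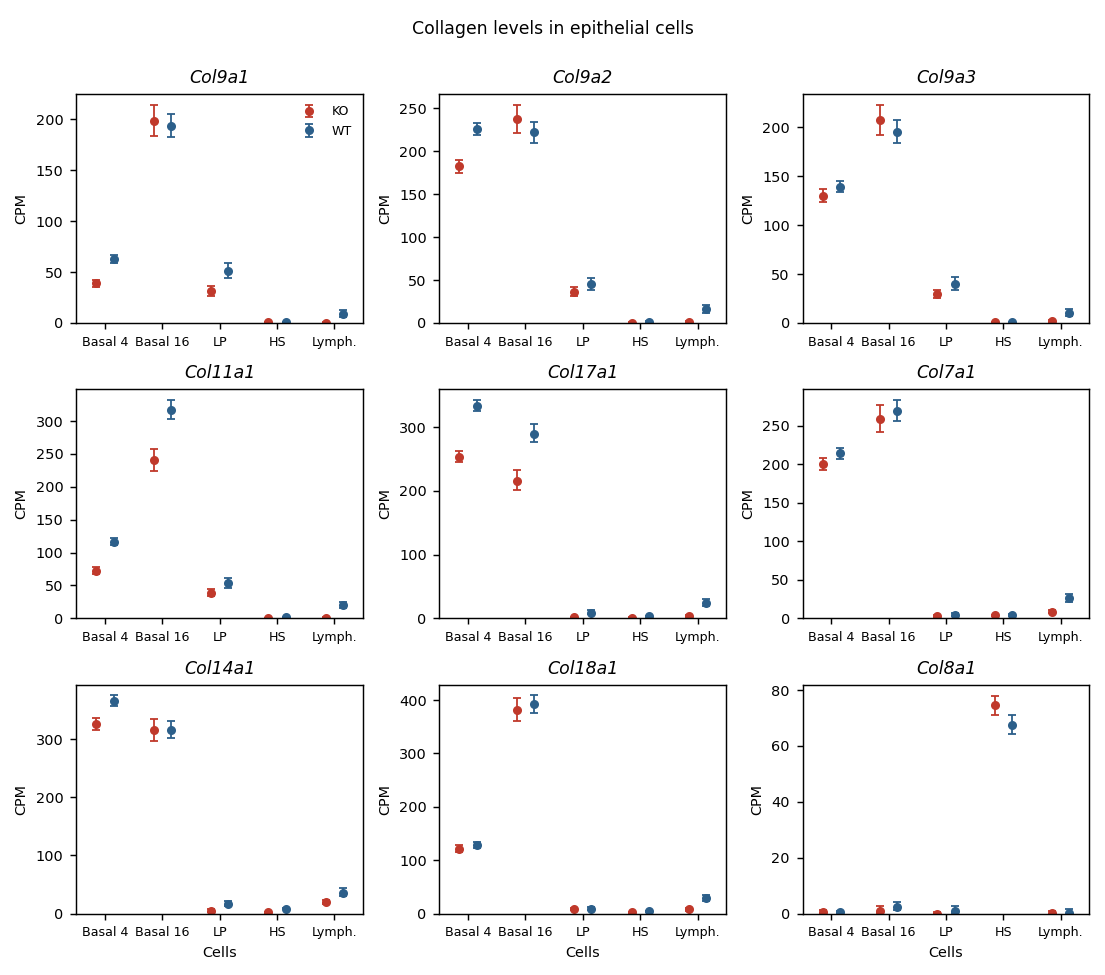
Level (CPM) of 9 chains in basal clusters 4 and 16, luminal progenitors (LP), hormone-sensing cells (HS) and lymphocytes (Lymph.), with KO in red on the left and WT in blue on the right; bars are exact 95% Poisson intervals. The type IX chains and Col11a1 are highest in basal cluster 16 or both basal clusters with a lower level in LP, Col17a1 is near 0 in LP, and Col8a1 stands out in HS.

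Basal cells formed cluster 4 (Slpi, Ltbp2, Cnn1; 776 KO and 1152 WT cells) and cluster 16 (Lbhd2, Gpx2, Serpinb11; 169 and 263 cells), which differed in several chains. Col9a1 had 198 CPM (184 to 214) in KO and 194 CPM (182 to 205) in WT cluster 16, against 39.0 CPM (35.6 to 42.6) and 62.7 CPM (59.0 to 66.7) in cluster 4. Col11a1 had 240 CPM in KO and 317 CPM in WT cluster 16, against 72.6 and 116 CPM in cluster 4. Col18a1 had 382 CPM in KO and 391.98 CPM in WT cluster 16, against 122 and 128 CPM in cluster 4, and Col2a1 had 12 and 19.5 CPM, against 1.99 and 3.45 CPM. The hemidesmosome chain Col17a1 ran the other way, with 216 and 290 CPM in cluster 16 and 254 and 333 CPM in cluster 4, as did Col12a1, with 22.2 and 16.7 CPM against 109 and 90.2 CPM. Col9a2 differed less between the clusters, with 237 CPM in KO and 222 CPM in WT cluster 16, against 182 and 226 CPM in cluster 4. In cluster 16, 89.9% of the KO cells and 85.9% of the WT cells held a Col9a1 UMI (35.5% and 32.1% after thinning to 2000 UMIs). In cluster 4 the shares were 26.5% and 36.2% (5.17% and 8.82% thinned), and among lymphocytes 0.0898% and 1.42% (0 and 0.726% thinned). The clusters differed in depth, with medians of 18472 KO and 19793 WT UMIs in cluster 16 and 12779 and 10787 UMIs in cluster 4.

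Luminal progenitors shared the type IX chains and Col11a1 with basal cells but not Col17a1, and the sharing was not limited to these chains. Col9a1 had 31.1 CPM (26.9 to 35.9) in KO and 51.3 CPM (44.2 to 59.1) in WT progenitors, Col9a2 36.2 and 45.3 CPM, Col9a3 29.5 and 39.9 CPM, and Col11a1 38.8 and 52.9 CPM. Hormone-sensing cells had at most 1.51 CPM of each of these 4 chains in either library. Progenitors held 23.8 Col9a1 UMIs per Col17a1 UMI in KO (11.8 to 55.8) and 5.76 in WT (3.96 to 8.61), against 0.298 and 0.300 in basal cells. In endothelial cells Col9a1 per Col17a1 was 0.316 in KO (0.103 to 0.822) and 0.313 in WT (0.163 to 0.568).

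**Figure D4:**
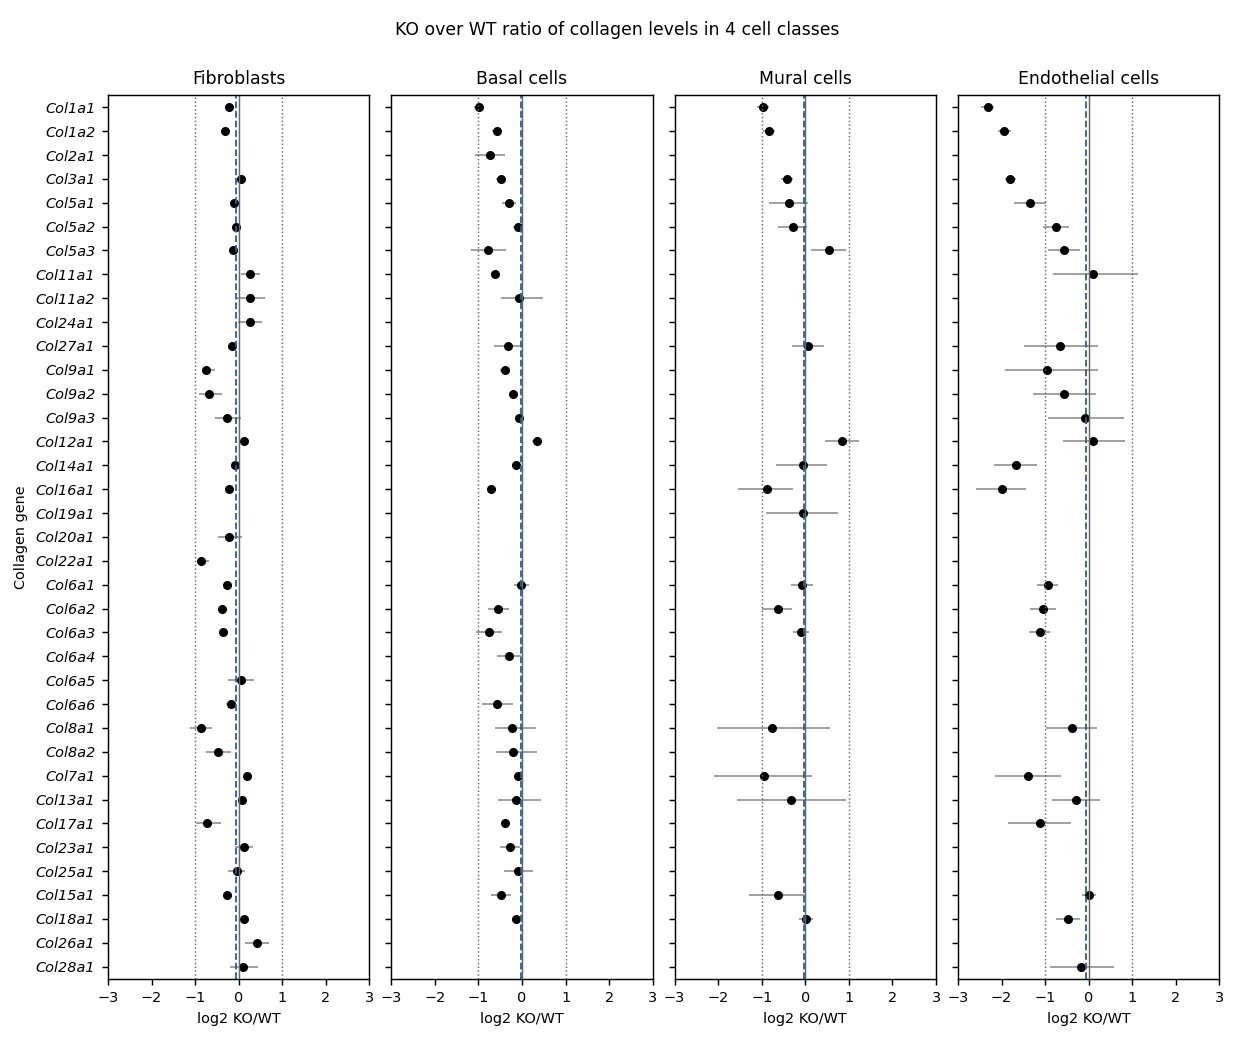
Log2 ratio of the KO to the WT level, 1 CPM being added to each, of each collagen gene with at least 20 UMIs in fibroblasts, basal, mural and endothelial cells (points), with exact 95% intervals of the counts put on the same scale (grey lines; counting error only). Dotted lines mark 2-fold and the dashed line is the median of all genes in that class; points lie near 0 in fibroblasts and furthest below it in endothelial cells, down to −2.32 for Col1a1.

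The genotypes were compared within each class by the log2 ratio of the KO level to the WT level, after adding 1 CPM to each, and a ratio of at least 2-fold (1 on the log2 scale) was called. In fibroblasts none of the 34 chains with at least 20 UMIs passed 2-fold, where 0.684% of all 14761 genes did. Their median ratio was −0.14, against −0.06 over all genes, with 22 of 34 below 0 beside 59.0% of all genes. The lowest ratios were those of Col22a1 (0.0522 CPM in KO, 0.929 CPM in WT, −0.87), Col8a1 (2.90 CPM in KO, 6.12 CPM in WT, −0.87) and Col9a1 (0.0522 CPM in KO, 0.763 CPM in WT, −0.74), each low in both libraries. The highest were Col26a1 (4.70 CPM in KO, 3.29 CPM in WT, 0.41), Col11a1 (7.86 CPM in KO, 6.36 CPM in WT, 0.27) and Col24a1 (3.86 CPM in KO, 3.07 CPM in WT, 0.26). Median depth differed between the fibroblasts, at 8472 UMIs in KO and 10833 in WT, and its part in these ratios was not tested.

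Among the abundant fibroblast chains, the type I and type VI chains had lower levels in the KO library than in the WT library and Col3a1 did not. Of 19 chains with at least 20 UMIs in each of the 5 fibroblast clusters, 5 were lower in KO in all 5 clusters. None was higher in all 5. The same counts over all genes are not given, so no background stands beside them. The 5 chains were Col1a1, Col1a2, Col6a1, Col6a2 and Col6a3. Their log2 ratios by cluster ran between −0.45 and −0.06 for Col1a1, −0.62 and −0.21 for Col1a2, −0.38 and −0.10 for Col6a1, −0.43 and −0.16 for Col6a2, and −0.41 and −0.04 for Col6a3. Col3a1 per Col1a1 was 1.00 in KO and 0.829 in WT fibroblasts, and higher in KO in each cluster, from 0.744 against 0.632 in cluster 3 to 1.26 against 1.10 in cluster 2. These 5 chains also had ratios below 0 over all fibroblasts under every alternative tried, and Col3a1 above 0, whereas the smallest ratios by cluster are within the shift given by the TMM scaling factors (0.973 for KO and 1.03 for WT fibroblasts). Clusters of 1 library are not replicates, and with 1 library per genotype the spread of these ratios between animals is unknown.

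Chains past 2-fold within single fibroblast clusters were few and low. None was called in clusters 1 and 3, where 1.05% and 1.70% of all genes were. Col8a1 was lower in KO in cluster 2 (0.854 CPM in KO, 3.63 CPM in WT; 1.68% of genes called) and in cluster 12 (20.7 CPM in KO, 45.5 CPM in WT; 3.45% of genes called). In cluster 12 the 5 cells with most Col8a1 held 70.6% of its KO UMIs and 51.9% of its WT UMIs, and the other chain called there was Col22a1, from 1 WT cell. In cluster 5, where 2.88% of genes were called, the chains lower in KO were the basal messages Col17a1 (0.255 CPM in KO, 7.14 CPM in WT), Col9a1 (0 and 4.62 CPM) and Col11a1 (1.79 and 5.46 CPM).

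In basal cells, 29 of 30 measured chains had a ratio below 0, beside 53.0% of all genes, with a median of −0.30 against −0.02 over all genes. None passed 2-fold, where 0.883% of 13821 genes did. The lowest ratios were those of Col1a1 (56.9 CPM in KO, 114 CPM in WT, −0.997), Col5a3 (1.88 CPM in KO, 3.95 CPM in WT, −0.78) and Col6a3 (6.32 CPM in KO, 11.3 CPM in WT, −0.75), chains whose highest class is the fibroblast. Among chains highest in basal cells, Col16a1 had a ratio of −0.71 (248 CPM in KO, 406 CPM in WT), Col11a1 −0.63, Col17a1 −0.39 and Col9a1 −0.39, while Col7a1 (−0.10) and Col9a3 (−0.06) were nearly level. Col12a1 was the chain above 0, at 0.34 (90.3 CPM in KO, 71.3 CPM in WT), followed by Col6a1 at −0.02 and Col9a3. All 7 fibroblast markers were lower in KO basal cells, with summed levels of 372 CPM in KO and 494 CPM in WT. A UMI of at least 3 of them was found in 28.8% of KO and 39.4% of WT basal barcodes. These barcodes were on average deeper than the other basal barcodes in both libraries. Without them, 28 of 30 chains were below 0 and the median was −0.33. Col1a1 was then called at −1.04 (20.6 CPM in KO, 43.5 CPM in WT), beside 1.14% of genes called.

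Of the cartilage-type chains, Col9a1 and Col9a2 were lower in KO in cluster 4 but not in cluster 16. Col11a1 and Col2a1, with levels given above, were lower in KO in both clusters. The intervals of Col9a1 in cluster 16, also given above, overlapped between the libraries. Col9a1 had a lower level in KO than in WT cluster 4 (39.0 against 62.7 CPM) but not in cluster 16 (198 against 194 CPM), and Col9a2 likewise (182 against 226 CPM in cluster 4, 237 against 222 CPM in cluster 16). This difference between clusters was not tested. In cluster 16, 7 of 25 chains were at least 2-fold lower in KO, beside 2.04% of all genes called lower: Col1a1 (26.8 CPM in KO, 122 CPM in WT), Col1a2, Col3a1, Col5a3, Col6a1, Col6a2 and Col6a3. Of the other chains highest in fibroblasts, Col5a1, Col5a2, Col14a1 and Col15a1 were not past 2-fold there. All 7 fibroblast markers were lower in KO cluster 16, with summed levels of 341 CPM in KO and 386 CPM in WT, and their part in these ratios was not tested. In cluster 4 none of 29 was past 2-fold, beside 1.34% of all genes.

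In mural cells, 15 of 19 measured chains were below 0, beside 53.3% of all genes, with a median of −0.34, against −0.04 over all genes, and none passed 2-fold where 7.11% of 9829 genes did. The extremes were Col1a1 (415 CPM in KO, 816 CPM in WT, −0.97), Col7a1 (5.40 CPM in KO, 11.4 CPM in WT, −0.95) and Col16a1 (20.7 CPM in KO, 39.2 CPM in WT, −0.89) at the low end, and Col12a1 (0.85), Col5a3 (0.54) and Col27a1 (0.07) at the high end. Col18a1 was level, with a ratio of 0.02. Smooth muscle cells taken alone gave a median of −0.83 and 8 chains at least 2-fold lower in KO, where 6.5% of genes were called lower. The number of chains measured there is not given, so this count is not set against that share. Pericytes carried 278 of 461 Col1a1 UMIs of the class in KO and 1191 of 3018 in WT. Smooth muscle Col12a1 had 82.2 CPM in KO and 42.6 CPM in WT. Of the 7 fibroblast markers 5 were lower in KO mural cells, summing to 875 CPM in KO and 1016 CPM in WT. In smooth muscle cells alone 6 were lower in KO, and the 7 summed to 723 CPM in KO and 882 CPM in WT. At least 3 of the 7 were found in 9% of KO and 21.7% of WT mural barcodes, and without these the median of the class was −0.12 and Col15a1 alone was past 2-fold (8.68% of genes called). That call rested on 3 Col15a1 UMIs in KO (3.11 CPM) and 26 in WT (9.35 CPM). The part of fibroblast RNA in the mural and smooth muscle ratios was not tested.

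In endothelial cells, 10 of 24 measured chains were at least 2-fold lower in KO and none higher, where 6.07% of 10172 genes were called in either direction and 4.82% lower. The median was −0.85, against −0.06 over all genes. The 10 were Col1a1 (167 CPM in KO, 837 CPM in WT, −2.32), Col16a1 (11.3 CPM in KO, 48.0 CPM in WT, −2.00), Col1a2 (193 CPM in KO, 745 CPM in WT, −1.94), Col3a1 (231 CPM in KO, 805 CPM in WT, −1.79), Col14a1 (17.1 CPM in KO, 56.4 CPM in WT, −1.67), Col7a1 (6.67 CPM in KO, 19.2 CPM in WT, −1.40), Col5a1 (34.2 CPM in KO, 88.7 CPM in WT, −1.35), Col17a1 (7.92 CPM in KO, 18.4 CPM in WT, −1.12), Col6a3 (81.7 CPM in KO, 179 CPM in WT, −1.12) and Col6a2 (58.8 CPM in KO, 122 CPM in WT, −1.05). At the other end lay Col12a1 (0.11), Col11a1 (0.10) and Col15a1 (0.02), and the endothelial chain Col28a1 had −0.17.

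**Figure D5:**
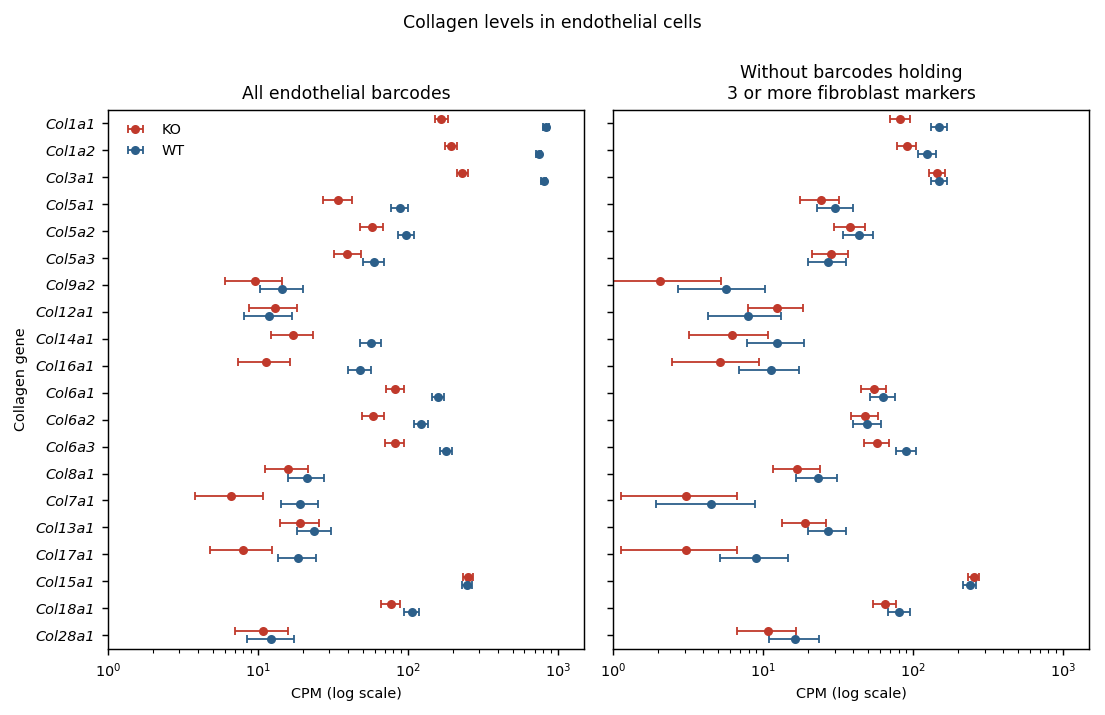
Level (CPM, log scale) in endothelial cells of the chains with at least 50 UMIs there, in all barcodes (left) and without barcodes that hold a UMI of at least 3 of 7 fibroblast markers (right); KO is red and above, WT blue and below, and bars are exact 95% Poisson intervals. Col1a1 stands at 167 CPM in KO and 837 CPM in WT on the left and at 82.2 and 150 CPM on the right, while Col15a1 stays near 250 CPM throughout.

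Fibroblast markers were counted in the same endothelial cells. All 7 markers were detected in both libraries and lower in KO endothelial cells, and their summed level was 265 CPM in KO and 657 CPM in WT, against 6368 and 7057 CPM in fibroblasts. At least 3 of the 7 were found in 8.40% of KO and 20.8% of WT endothelial barcodes, and these barcodes held 56.5% and 87.9% of the Col1a1, Col1a2 and Col3a1 UMIs of the class. The 5 barcodes with most Col1a1 held 43.6% of its KO and 44.6% of its WT UMIs. Without the marked barcodes 2 of 24 chains were past 2-fold, Col9a2 (2.06 CPM in KO, 5.63 CPM in WT) and Col17a1 (3.08 CPM in KO, 9 CPM in WT), both basal messages, where 7.20% of genes were called, and the median was −0.43. Col3a1 then had 144 CPM in KO and 149 CPM in WT, and Col15a1 253 and 238 CPM. With called doublets kept, 1 chain was past 2-fold and the median was −0.31. Leaving out marked barcodes was chosen after seeing the data, and it also removes any collagen UMIs captured together with those markers. The part of fibroblast RNA in the endothelial ratios was not tested.

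Some chains were also lower in KO in luminal cells. In hormone-sensing cells 10 of 24 chains were at least 2-fold lower in KO (1.8% of genes called lower), led by Col1a2 at 17.2 CPM in KO and 76.9 CPM in WT, while their own chain Col8a1 had a ratio of 0.14. In luminal progenitors 9 of 20 were lower (1.91% of genes called lower), led by Col17a1 at 1.31 CPM in KO and 8.91 CPM in WT. The type IX chains and Col11a1, given above, were not past 2-fold. Barcodes with at least 3 fibroblast markers made up 0.244% of KO and 5.26% of WT hormone-sensing cells, and 0.897% and 6.08% of progenitors. The summed marker levels were 13.8 CPM in KO and 67.1 CPM in WT hormone-sensing cells and 41.8 and 69.1 CPM in progenitors, and their part in these ratios was not tested. Among lymphocytes, 17 KO barcodes (1.53%) and 28 WT barcodes (6.62%) carried those markers and held 92.3% and 89.6% of the lymphocytes' Col1a1, Col1a2 and Col3a1 UMIs.

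Of the measured genes that build, process and bind collagen, none was past 2-fold in fibroblasts, but the median of each list lay below 0. Of 18 folding and modifying enzymes and chaperones, 14 were below 0 and none past 2-fold in fibroblasts, with a median of −0.17. The lowest was the prolyl hydroxylase subunit P4ha3 (12.7 CPM in KO, 18.4 CPM in WT, −0.50) and the highest the prolyl isomerase Ppib (805 CPM in KO, 661 CPM in WT, 0.28), and Serpinh1 had 1987 CPM in KO and 2782 CPM in WT. Propeptide removal and cross-linking genes had a median of −0.13 over 12, from Adamts3 (−0.36) to Tll1 (0.40), and fibril-bound proteoglycans and regulators −0.27 over 9, from Podn (−0.52) to Aspn (0.32). Collagen receptors had a median of −0.20 over 9 measured, from Itga10 (−0.48) to Itga2 (0.31), and the 6 type IV chains −0.41, from Col4a6 (−0.78) to Col4a4 (0.09). All these medians are to be read beside −0.06 over all genes of the class.

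In endothelial cells, where 4.82% of all genes were at least 2-fold lower in KO, the calls fell mainly on cross-linking genes and proteoglycans. Of 10 measured cross-linking and propeptide genes, 5 were at least 2-fold lower in KO: the lysyl oxidase Lox (4.17 CPM in KO, 26.9 CPM in WT), Loxl1 (11.3 CPM in KO, 48.7 CPM in WT), the propeptide-cleavage enhancer Pcolce2 (6.25 CPM in KO, 24.9 CPM in WT), Loxl3 (1.67 CPM in KO, 6.91 CPM in WT) and the propeptidase Adamts2 (12.9 CPM in KO, 28.4 CPM in WT). So were 7 of 9 proteoglycans and regulators, among them decorin, Dcn (163 CPM in KO, 575 CPM in WT), and lumican, Lum (25.8 CPM in KO, 110 CPM in WT), with the others being Tnxb, Ogn, Podn, Fmod and Bgn, and 1 of 6 collagen receptors, Mrc2 (7.09 CPM in KO, 16.9 CPM in WT). None of 17 folding enzymes and chaperones and none of 4 type IV chains was past 2-fold there, with list medians of −0.25 and −0.37. In basal cells Ogn (2.00 CPM in KO, 6.56 CPM in WT) and Lum (9.63 CPM in KO, 21.2 CPM in WT) were called. These were 2 of 8 proteoglycans, where 0.883% of all genes were called. In mural cells Loxl1 (54.0 CPM in KO, 121 CPM in WT) was called, 1 of 9 cross-linking genes where 7.11% of all genes were. The lymphocyte group had 239 CPM of Dcn in KO and 503 CPM in WT, 46.0 and 90.2 CPM of Lum, and 13.7 and 17.5 CPM of Ogn. Dcn was higher in the full T cell class (354 CPM in KO, 892 CPM in WT) and B cell class (782 CPM in KO, 1106 CPM in WT). Natural killer cells had 23.4 CPM of Dcn in KO and 523 CPM in WT, so the lymphocyte level depends on which cells are taken. The lymphocyte group had 13.4 and 19.1 CPM of Lox, and 10.2 and 7.97 CPM of Pcolce2, which was not lower in KO. The part of free or co-captured fibroblast RNA in these calls was not tested.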

How the data were processed

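The deposited files hold raw UMI counts per gene and cell barcode, 1 filtered matrix for the KO and 1 for the WT library; per the file headers they were written by Cell Ranger 5.0.1, and per the submitters' processing notes Seurat 3.2.0 and the mm10 build were used. No column of another sample was present (0). Each library is described with 3 littermates, whose cells cannot be separated, so n is 1 per genotype. The KO library held 139757797 UMIs over 11442 barcodes and the WT library 160026788 over 12291.

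From these counts, barcodes were kept if they had 500 genes and 1000 UMIs or more, with mitochondrial UMIs at 10% or below. Scrublet in scanpy 1.11.5 (expected rate 0.8% per 1000 barcodes) marked 485 KO (4.45%) and 461 WT (4.20%) barcodes as doublets, which were removed; its automatic threshold depended on the random seed, which was fixed at 0. Cells were clustered on 2000 variable genes without any collagen gene (30 principal components, 20 neighbours, Leiden resolution 1, leidenalg 0.10.2, igraph 0.11.9), giving 40 clusters and 51 after mixed ones were split. Clusters were named from 21 marker lists, with naming limits that were changed once the clusters were known. Classes and clusters with at least 50 cells in each library were compared; pericytes and Schwann cells have fewer in at least 1 library and are given as values.

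UMIs were summed per class and library and scaled to 1000000 UMIs (CPM). Ratios carry 1 CPM added to both sides and were taken for genes with at least 20 UMIs in the class; at least 2-fold was called, with no test. Intervals are exact at 95% (scipy 1.17.1, numpy 2.4.6, python 3.11.15) and were checked on simulated counts; the limit for a count of 0 is 3 counts. PCR copies are collapsed by the UMIs, and intervals cover counting error only. TMM factors (edgeR 4.0.16, R 4.3.3) served as an alternative scaling. In each class the text names chains past 2-fold with at least 50 UMIs and the 3 highest and 3 lowest ratios, and chains past 2-fold within clusters; of the other lists, genes past 2-fold and the extremes. The chains, lists and markers were chosen with earlier results of these data known.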

Additional observations from a re-analysis of the deposited data

How the results depend on the processing

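No paired analysis was possible because each genotype has 1 library, and leaving out a library leaves no comparison. Of the recomputed summary values 278 stayed close and 50 moved, which follow as counts of chains past 2-fold unless said otherwise. The cause of these changes was not tested. Without marked barcodes the share of all genes called was 1.14% in basal, 8.68% in mural and 7.20% in endothelial cells. Without pericytes 6.5% of genes were called lower in KO. For the other settings no such share is given, so those counts are not read as results about collagens.

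In fibroblasts (0 chains), 1 was called after thinning to 2000 UMIs, 4 with the mean over cells, 2 with the lymphocyte level subtracted, 1 with cluster 10 counted as fibroblasts and 5 with 0.1 CPM added. The median of −0.14 became 0.00 with the lymphocyte level subtracted and −0.053 with cluster 10. TMM factors gave medians of −0.051 for cross-linking genes and −0.19 for proteoglycans, and type IV chains had 1 call with 0.1 CPM and a median of −0.22 with 5 CPM added. In basal cells (0), 1 was called with at most 5% mitochondrial UMIs, with collagen genes clustered, at resolution 2, with the lymphocyte level subtracted (median 0.00) or with fibroblast-marked barcodes left out, 2 with thinning or 0.1 CPM, 5 with the mean over cells and 6 with cells classed by marker score; proteoglycans had 1 call without marked barcodes and 0 with 5 CPM added.

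In mural cells (0), the count was 1 with at most 5% mitochondrial UMIs, without marked barcodes or with 0.1 CPM, 3 with collagen genes clustered, 4 at resolution 0.5 or with the mean over cells, 5 at resolution 2, with thinning or with a minimum of 1 UMI, 6 with the lymphocyte level subtracted and 8 without pericytes. Without marked barcodes 3 cross-linking genes and 3 proteoglycans (median −0.82) were called, and 1 proteoglycan with 0.1 CPM. In endothelial cells (10), the count was 1 with doublets kept (median −0.31), 2 without marked barcodes, 6 with cells classed by marker score and 17 with thinning. Cross-linking genes had 3 calls without marked barcodes (median −0.34) or with 5 CPM added and 2 at a minimum of 100 UMIs, where receptors had 0, as with 5 CPM, and type IV chains had 1 without marked barcodes. Endothelial Col17a1 reversed to 2.36 with the lymphocyte level subtracted.

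The number of chains with the same highest class in both libraries ran between 30 and 33 over the alternatives, and with the same highest fibroblast cluster between 21 and 25. The sign was kept under every alternative for 20 of 34 chains in fibroblasts, 18 of 30 in basal, 2 of 19 in mural and 13 of 24 in endothelial cells, so the mural ratios carry the least weight. Omission of marked barcodes, of pericytes and the addition of cluster 10 were chosen after seeing the data.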

Other observations

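Schwann cells, too few to be compared as a class (12 KO and 22 WT cells), held collagen chains that were low in most other cells. Col6a5, a chain that can take the place of Col6a3 in type VI filaments, had 596 CPM in KO from 34 UMIs and 128 CPM in WT from 16 UMIs, against 2.64 and 2.53 CPM in fibroblasts. Col20a1, a fibril-associated chain, had 1 UMI in KO Schwann cells (17.5 CPM, below the 52.6 CPM that 3 counts make) and 17 UMIs in WT Schwann cells (136 CPM). Fibroblasts had 2.82 CPM of it in KO and 3.43 CPM in WT, and WT B cells had 26.1 CPM.

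An unnamed dividing cluster, cluster 25 (Serpinb11, Ccnb1, Cnih2; 48 KO and 90 WT cells), carried the chains of basal cluster 16. It had 156 CPM of Col9a1 in KO and 141 CPM in WT, 203 and 277 CPM of Col11a1, 157 and 151 CPM of Col7a1, and 219 and 255 CPM of Col17a1.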
